A study of Mus musculus with 35 samples.

Results

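The genes described here encode the machinery that carries newly made proteins into the endoplasmic reticulum (ER), folds them there and sends them on. They were a given list of 51 gene symbols covering chaperones, protein disulfide isomerases, ER-associated degradation, the translocon, signal peptidase, oligosaccharyl transferase and ER-to-Golgi transport, with Pdia4, Hspa5 and Derl3 as its leading genes. All 51 were on the Affymetrix Mouse 430A2 array, out of 12393 genes, and each was read from the probe set with the highest mean over all arrays. The series held 35 arrays in 9 groups of mouse B cells and lymphoid tumours, as log2 intensities. All 22 arrays of normal cells were of wild-type mice. The 3 pro-B samples were sorted from bone marrow as B220+ with high CD43 and without IgM, and the 3 pre-B samples likewise but with low CD43. The marrow also gave the 3 plasma cell samples, sorted for low B220 with Cd138 and without Cd93. The spleen gave 4 samples of transitional cells (sorted by B220 and Cd93), 5 of germinal centre (GC) cells (B220 with high PNA binding) and 4 of plasmablasts (B220 and Cd138, without Cd93). Pre-B and transitional cells and 2 of the 3 pro-B samples were of strain 129, while the last pro-B sample (replicate 3), GC cells, plasmablasts and plasma cells were of strain B6. The 13 tumour arrays were of whole lymphoid tumour from Bcl6 knock-in mice (n = 4), from mice transgenic for both Bcl6 and Myc (n = 3) and from mice lacking both Lig4 and p53 (n = 6). The promoters of the transgenes and the ages of the mice are not given in the sources used here. Nothing in the labels says whether replicates were separate mice, so the p-values measure only the spread between these samples, which may be technical.

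Secreted and membrane proteins enter the ER through the SEC61 translocon, lose their signal peptide, receive sugar chains and fold with the help of the chaperone BiP (Hspa5), lectins and disulfide isomerases, while molecules that fail are sent back to the cytosol by the derlins and the SEL1L complex. The unfolded protein response adjusts this machinery through the factors XBP1, ATF6 and ATF4, which bind short elements in the promoters of its genes. B cells enlarge the ER when they turn into antibody-secreting plasmablasts and plasma cells.

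Promoter windows from 250 bases before to 50 bases after the gene start were found in RefSeq for 41 of the 51 genes (mouse build GRCm38.p6). The ER stress response element (ERSE), the element bound by ATF6 together with NF-Y, was searched on both strands as CCAAT and CCACG separated by 9 bases of any kind. It stood in the windows of 8 of the 41 genes (19.5%) and of 37 of the 27025 genes with a window (0.137%), these 8 included. Those 8 hold members of several roles, among them the leading genes Hspa5 and Derl3, and their matches are shown with 12 bases on each side. Each is written 5′ to 3′ along the gene's own strand with the element in capitals, and positions count from the gene start. Where the element lies on the opposite strand the capitals begin with CGTGG and end with ATTGG.
Hspa5, chr2:34772013-34772055, plus strand, match at -65 to -47: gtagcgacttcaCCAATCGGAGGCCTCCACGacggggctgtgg
Hsp90b1, chr10:86705626-86705668, minus strand, match at -212 to -194: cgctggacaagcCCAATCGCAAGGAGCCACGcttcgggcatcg
Hsp90b1, chr10:86705521-86705563, minus strand, match at -107 to -89: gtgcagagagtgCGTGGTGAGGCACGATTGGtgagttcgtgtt
Dnajc3, chr14:118937815-118937857, plus strand, match at -105 to -87: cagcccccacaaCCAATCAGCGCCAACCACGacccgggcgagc
Creld2, chr15:88819508-88819550, plus strand, match at -126 to -108: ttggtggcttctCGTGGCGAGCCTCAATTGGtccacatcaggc
Calr, chr8:84847063-84847105, minus strand, match at -162 to -144: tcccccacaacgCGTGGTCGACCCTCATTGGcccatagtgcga
Canx, chr11:50325788-50325830, minus strand, match at -145 to -127: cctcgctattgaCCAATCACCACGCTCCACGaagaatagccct
Pdia6, chr12:17266479-17266521, plus strand, match at -98 to -80: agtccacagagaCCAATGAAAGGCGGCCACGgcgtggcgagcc
Derl3, chr10:75893230-75893272, plus strand, match at -156 to -138: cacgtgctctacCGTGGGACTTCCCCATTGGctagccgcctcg
A second form, ERSE-II (ATTGG and CCACG separated by 1 base), matched in Herpud1 and Dnajb11 and in 0.0444% of genes, and Herpud1 is shown because it is the member of the ER-associated degradation group with this form.
Herpud1, chr8:94386365-94386399, plus strand, match at -52 to -42: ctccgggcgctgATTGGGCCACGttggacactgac
The core bound by XBP1 (TGACGTGG, the UPRE core) was found in the window of Sec24d and in 0.714% of genes, and the core bound by ATF4 and CHOP (TGATGCAA) in that of Herpud1 and in 1.03% of genes. These matches are descriptions of the letters in the window and were not tested as sites.

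Several arrays stood apart from the rest of their group. The interquartile range of all values was narrow in 1 array each of the pro-B cells (replicate 1, at 2.09 log2 units), the pre-B cells (replicate 2, 2.03) and the Bcl6 tumours (replicate 2, 2.15), against 3.25 to 4.23 on all other arrays except the Myc/Bcl6 tumours at 2.33 to 2.85. The signal of Actb and Gapdh was higher at the 3′ than at the 5′ end by 2.25 to 4.70 log2 units in the tumours and by 4.59 and 4.46 in plasma cell replicates 1 and 2, but by 0.45 in plasma cell replicate 3. It was also large in pro-B replicate 1 (2.95), pre-B replicate 2 (2.27) and transitional replicate 4 (2.215), of which the first 2 were arrays of narrow spread. Sdc1, the gene of the sort marker Cd138, was at 9.06, 9.99, 10.44 and 5.52 in the plasmablasts and at 3.88, 4.60 and 5.71 in the plasma cells, which is below the 6.31 to 7.42 of the GC cells. High Sdc1 was not particular to plasmablasts: it was at 10.43, 10.98 and 10.46 in the pre-B arrays and at 4.15, 9.82 and 9.71 in the pro-B arrays. In the arrays labelled plasma cell, Jchain, which encodes the joining chain of secreted antibody, was at 9.81 to 10.11 (GC 11.10 to 12.07), Cd93, which the sort excluded, at 8.14, 7.84 and 6.03 (GC 5.83 to 6.61), and Prdm1, a regulator of secreting cells, at 6.90 to 7.07 (GC 5.45 to 6.25). In the plasmablasts Jchain was at 11.28, 12.49, 10.66 and 8.19, so that replicates 3 and 4 were also below all GC arrays. Markers of other cells were present too: the median of 7 natural killer cell genes, centred on the mean of the groups, was 1.94 to 2.98 in GC cells and at most 0.73 in the plasmablasts and plasma cells.

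The range of a gene's 9 group means had a median of 2.59 log2 units over these genes and 1.88 over all genes, and 1.74 against 1.37 over the 6 normal groups. All but 1 of the 51 were brighter on average than the median gene, and these shares and ranges were not matched for brightness. Plasmablasts had the highest mean of the 9 groups for 16 of the 51 (31.4%), against 3.5% of all genes. These were the chaperones and co-chaperones Hsp90b1, Dnajc3, Sdf2l1 and Manf, the disulfide isomerases Pdia3 and Pdia4, the derlins Derl2 and Derl3, and Sec61b, Ssr2, Ssr4, Spcs1, Spcs2, Ddost, Dad1 and Kdelr2 of the entry, glycosylation and retrieval steps. Plasma cells were highest for 8 (15.7%, as of all genes), namely Hspa5, Creld2, Pdia6, Fkbp11, Sel1l, Rpn2, Sec23b and Lman1. GC cells were highest for 7 (13.7%, against 7.7% of all genes), namely Dnajb9, Calr, Sec62, Tram1, Ssr3, Srp9 and Srp14. Myc/Bcl6 tumours were highest for 8 (Hyou1, Fkbp9, Derl1, Edem1, Sec61a1, Rpn1, Stt3a and Surf4; 15.7%, against 22.1% of all genes) and lowest for 20 (39.2%, against 20.3%). Among the normal groups alone, pre-B cells were lowest for 23 of the 51 (45.1%, against 17.0%) and plasmablasts for none (against 13.2% of all genes). With the 3 arrays of narrow spread left out of the means, pre-B cells were lowest for 8 (10.8% of all genes), and plasmablasts were still highest of the 9 groups for 15 (2.5%).

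**Figure D1:**
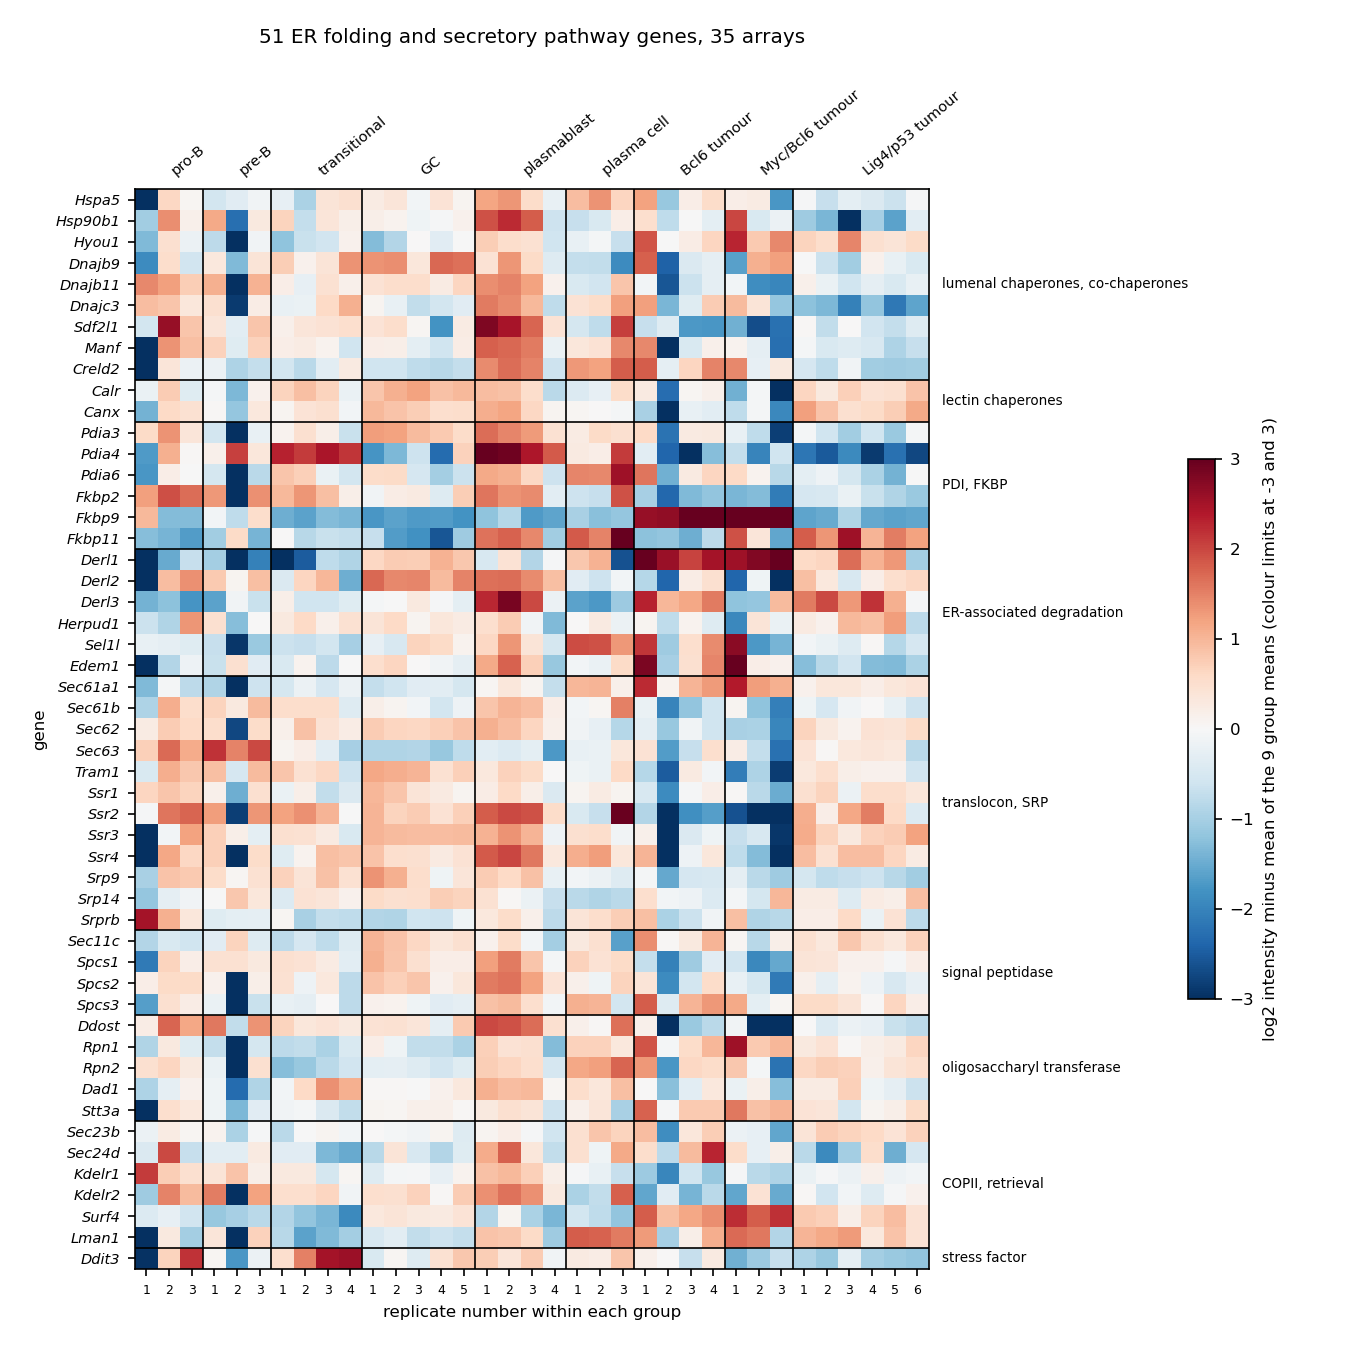
Heat map of the 51 genes (rows, grouped by role) in the 35 arrays (columns, by group and replicate); colour is the log2 intensity minus the mean of the 9 group means, limited to between -3 and 3. Plasmablast replicates 1 to 3 are red in most rows and replicate 4 is not, and Fkbp9 and Derl1 are the deepest red rows of the Bcl6 and Myc/Bcl6 tumours.

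The median of the 51 centred values gives a level per array. It was 1.05, 1.06, 0.65 and -0.31 in the 4 plasmablast arrays, 0.04 to 0.38 in the GC arrays and 0.15, 0.20 and 0.57 in the plasma cell arrays. Transitional arrays were between -0.20 and 0.17, and Lig4/p53 tumour arrays between -0.08 and 0.24. Pro-B (-0.93, 0.65 and 0.29), pre-B (0.11, -1.27 and 0.23), Bcl6 tumour (0.51, -1.26, -0.04 and 0.30) and Myc/Bcl6 tumour arrays (-0.03, -0.30 and -1.28) each included a low array, which in the first 3 of these groups was the array of narrow spread. Plasmablast replicates 1 and 2 had the highest levels of the 35 arrays, and replicate 3 was level with pro-B replicate 2 at 0.65.

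**Figure D2:**
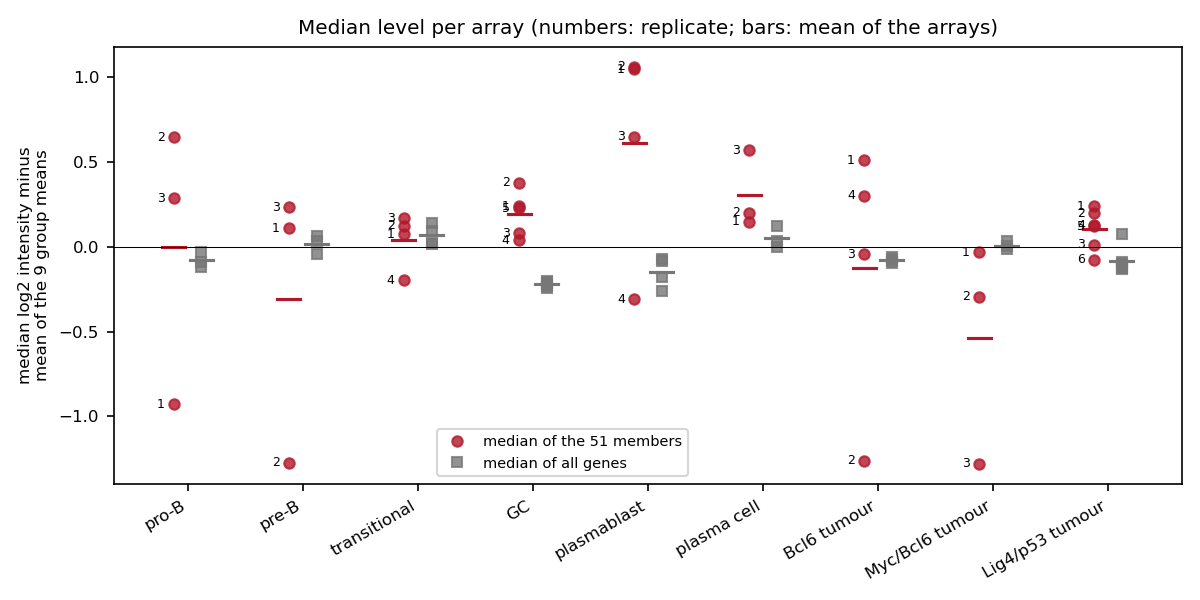
Median over the 51 genes (red circles, numbered by replicate) and over all 12393 genes (grey squares) of the log2 intensity minus the mean of the 9 group means, per array; short bars are means of the arrays of a group. Plasmablast replicates 1 to 3 sit at 0.65 to 1.06 and replicate 4 at -0.31, while the medians of all genes lie between -0.26 and 0.14 in every array.

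The comparison of plasmablasts with GC cells asks how the genes differ between antibody-secreting cells of the spleen and B cells of the germinal centre. Fitted means were higher in plasmablasts for 38 of the 51 genes, with a median log2 difference of 0.55 against 0.05 over all genes. At an adjusted p under 0.05, which is what "called" means here and below, 1 gene was higher and none was lower (limma), where 0.121% of all genes were called higher and 0.557% lower. At an unadjusted p under 0.05 there were 12, and the share of all genes at that threshold is not given here or below. The called gene was Pdia4, a disulfide isomerase of the BiP chaperone complex. Its log2 values were 10.61, 10.44, 9.95 and 9.37 in the 4 plasmablast arrays and 5.75, 6.16, 6.90, 5.20 and 8.21 in the 5 GC arrays. The groups did not overlap, and the difference was 3.64 ± 0.59 (SE, adjusted p = 0.00336). Its second, dimmer probe set differed by 0.46 (adjusted p = 0.673 over all probe sets).

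Hspa5, which encodes BiP, was at 11.67, 11.82, 11.03 and 10.28 in plasmablasts and 10.73, 10.85, 10.40, 10.91 and 10.58 in GC cells. Plasmablast replicate 4 lay below all GC arrays and the other 3 above them, and the difference of 0.51 ± 0.54 (SE, adjusted p = 0.976) was not called. Derl3, a derlin of the retrotranslocation channel, was at 8.12, 8.71, 7.83 and 5.68 in plasmablasts and 5.80, 5.83, 6.16, 5.81 and 5.56 in GC cells. Again only replicate 4 was within the GC range, and the difference was 1.76 ± 0.44 (SE, adjusted p = 0.0608). Fkbp11, a prolyl isomerase of the ER membrane, showed the same order, with 7.15, 7.29, 6.97 and 4.47 against 4.83, 3.85, 3.71, 2.96 and 4.45. It differed by 2.51 ± 0.60 (SE, adjusted p = 0.0574). The co-chaperone Sdf2l1 (1.97, adjusted p = 0.198) and Creld2 (1.70, adjusted p = 0.337), an ER stress-induced protein, had the next largest differences and were not called.

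Across roles, all 6 isomerases and FKBP proteins and all 5 oligosaccharyl transferase subunits had positive differences between plasmablasts and GC cells (medians 0.81 and 0.66), as did 8 of 9 lumenal chaperones and co-chaperones (median 1.15). The exception among the chaperones was Dnajb9, a BiP co-chaperone, at -0.81 (adjusted p = 0.717). Of the 12 translocon and signal recognition genes 6 were positive, with a median of 0.11. The lowest difference was that of Surf4, a cargo receptor, at -1.12 (adjusted p = 0.0588). Its other probe sets had means of 6.79, 7.73, 7.00 and 7.10 in plasmablasts and 7.52, 7.34, 6.22 and 6.25 in GC cells. The 8 genes with an ERSE match had a median difference of 0.95 with 7 positive, and the 33 with a window and no match a median of 0.37 with 24 positive. Between plasmablasts and transitional cells these medians were 0.66 and 0.63, and between plasma cells and GC cells 0.20 and 0.05, and none of these differences was tested.

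Plasmablast replicate 4 differed from the other 3 in nearly the whole list. It was lower than each of them for 49 of the 51 genes (96.1%, against 44.4% of all genes), by a median of 1.17 log2 units from their mean against 0.16 over all genes. Of the 51 genes, 43, 44 and 39 exceeded the GC mean in replicates 1, 2 and 3, and 9 did in replicate 4. Other markers moved with it. The median of 6 plasma cell genes was 1.20, 1.80, 1.01 and -0.80 in the 4 arrays and that of 6 erythroid genes 3.03, 3.11, 1.37 and -0.61, and their part in the result was not tested. In these sorted but bulk samples, fewer antibody-secreting cells and less RNA of these genes per cell cannot be told apart. Without replicate 4, 3 genes were called higher than in GC cells, namely Pdia4 (3.89, adjusted p = 0.00392), Derl3 (2.39, adjusted p = 0.000825) and Fkbp11 (3.18, adjusted p = 0.00619), and the median difference was 0.89. Without replicate 2 there were 2 calls, with Surf4, on the probe set read, lower as the second. Weighting the arrays by their estimated quality, in a fit of weights that did not converge, gave 34 calls, 31 of them higher. Fitting the groups alone gave 10 calls, and leaving the 3 arrays of narrow spread, which lie in other groups, out of the shared fit gave 9. For these other fits, here and below, the share of all genes called is not given beside the counts. Such a count therefore cannot show whether calls rose in the list alone or across the whole array. NK cell genes (5 of 7) and T-cell genes (3 of 7) were called lower than in GC cells and hepatocyte genes (2 of 6) higher, and their part was not tested.

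Against transitional B cells, the plasmablast means were higher for 44 of the 51 genes (median 0.66, against -0.21 over all genes). Derl3 was the 1 gene called higher and none was called lower, where 0.186% of all genes were higher and 0.234% lower. Transitional arrays read 6.03, 5.25, 5.25 and 5.48 for Derl3. Plasmablast replicate 4, at 5.68, was inside that range, and the difference was 2.09 ± 0.46 (SE, adjusted p = 0.0454). The call was lost, leaving 0, without transitional replicate 1, 2, 3 or 4 or plasmablast replicate 1, 2 or 3 (adjusted p up to 0.211). Pdia4 was high in both groups, at 9.83, 9.62, 9.97 and 9.66 in transitional cells, and its difference of 0.32 (adjusted p = 0.853) was not called. Strain differed between these groups, and with strain in the fit no gene of the list was called. Other fits gave more calls: 27 with array weights, 8 when only the compared groups were fitted and 14 once the 3 narrow arrays were dropped. Granulocyte genes (5 of 9) and hepatocyte genes (1 of 6) were called higher in plasmablasts, and their part was not tested.

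The comparison of bone marrow plasma cells with GC cells asks the same for the marrow cells so labelled. Their Sdc1, Jchain and Cd93 values, given above, go against the label, while Prdm1 was above all GC arrays. The median of 6 plasma cell genes, centred on the mean of the groups, was 0.31 to 0.68 in these arrays and -0.48 to 0.03 in GC cells. Of those 6 genes, 3 had positive differences from GC cells and none was called. Of the 51 genes 8 were called higher and 4 lower, where 11.9% and 7.63% of all genes were. The median difference was 0.05 against 0.28 over all genes, with 27 of the 51 positive. Fkbp11 had the largest difference. Its values were 7.35, 7.02 and 9.98 in plasma cells against 2.96 to 4.83 in GC cells. All plasma cell arrays were above all GC arrays, replicate 3 by the most, and the difference was 4.16 ± 0.66 (SE, adjusted p = 9.93e-05). It was called in every alternative fit run and with any array left out, but its 2 dimmer probe sets differed by 0.89 and -0.04 and were not called.

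The other genes called higher in plasma cells belonged to folding, glycosylation and export. Pdia6, a disulfide isomerase that also tunes the ER stress sensors, was at 9.44, 9.40 and 10.50 against 8.52, 8.54, 7.45, 6.94 and 7.33 in GC cells. Every plasma cell array was higher, by 2.02 ± 0.61 (SE, adjusted p = 0.0214) in the fit. Creld2 was at 9.14, 9.05 and 9.65 in plasma cells and 7.24, 7.24, 7.08, 7.01 and 7.14 in GC cells, again apart, with a difference of 2.14 ± 0.72 (SE, adjusted p = 0.0394). Lman1, the lectin that carries glycoproteins from the ER to the Golgi, was at 9.61, 9.55 and 9.34 against 7.31, 7.48, 7.06, 7.18 and 7.07. These groups did not overlap either, and the difference was 2.28 ± 0.78 (SE, adjusted p = 0.0432). Rpn2, a subunit of oligosaccharyl transferase, was at 9.64, 9.71 and 10.21 against 8.18, 8.21, 8.08, 7.90 and 8.11, higher in every plasma cell array by 1.76 ± 0.56 (SE, adjusted p = 0.0289). Pdia4, at 7.78, 7.72 and 9.62, differed by 1.93 ± 0.65 (SE, adjusted p = 0.0394). Here GC replicate 5, at 8.21, lay above plasma cell replicates 1 and 2. Sel1l, the scaffold of the degradation complex (1.60, adjusted p = 0.0114), and Srprb, a subunit of the signal recognition particle receptor (1.17, adjusted p = 0.0373), completed the 8.

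The 4 genes called lower in plasma cells than in GC cells came from other steps. Dnajb9 was at 7.39, 7.36 and 6.22 against 9.45, 9.49, 8.44, 9.82 and 9.75. The groups were apart, and it fell by 2.40 ± 0.52 (SE, adjusted p = 0.00211). Derl3 was at 4.24, 4.14 and 4.77, below the 5.56 to 6.16 of all GC arrays, and fell by 1.45 ± 0.48 (SE, adjusted p = 0.0351). Srp14, part of the signal recognition particle, was at 9.80, 9.70 and 9.80 against 11.19, 11.08, 11.11, 11.33 and 11.27 and fell by 1.43 ± 0.30 (SE, adjusted p = 0.00174). Surf4 was at 7.61, 7.40 and 6.98 against 8.49, 8.56, 8.45, 8.45 and 8.57 and fell by 1.17 ± 0.30 (SE, adjusted p = 0.00727), a direction that turned to 0.14 (adjusted p = 0.840) when its 5 probe sets were averaged. Hspa5 was at 11.40, 11.84 and 11.13 in plasma cells, above all GC arrays, and its difference of 0.77 ± 0.59 (SE, adjusted p = 0.405) was not called.

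Several of these 12 calls were lost when 1 array was left out. The count was 7 without GC replicate 1, 2 or 3, 5 without GC replicate 4 or plasma cell replicate 1, and 6 without plasma cell replicate 2 or 3. Lman1 and Creld2 each lost the call whichever of the 8 arrays was left out (adjusted p 0.0595 to 0.116 and 0.0586 to 0.128). Pdia6 was lost without GC replicate 4 or plasma cell replicate 3 (adjusted p up to 0.114), and Pdia4 without GC replicate 1, 2 or 4 or plasma cell replicate 1 or 3 (adjusted p up to 0.249). Rpn2 was lost without GC replicate 3 or 4 or plasma cell replicate 1, 2 or 3 (adjusted p up to 0.107), and Derl3 without GC replicate 1, 2, 3 or 4 or plasma cell replicate 1 or 2 (adjusted p up to 0.128). Fkbp11, Dnajb9, Srp14 and Surf4 were called with any array left out. Plasma cell replicates 1 and 2 were close to each other (median absolute difference 0.15 over the 51 genes, largest 0.62). Replicate 3 was more than 1 log2 unit above both for 11 genes (21.6%, against 9.7% of all genes) and below both for 5 (9.8%, against 14.8%), and with plasma cell replicates 1 and 2 both left out 5 genes were called. Equal array medians gave 6 higher and 8 lower. Without the 3 arrays of narrow spread, or with the groups fitted alone, 24 genes were called, and with array weights 32. NK genes (7 of 7), T-cell genes (5 of 7) and granulocyte genes (7 of 9) were called lower in plasma cells than in GC cells, and their part in the result was not tested.

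Between plasma cells and plasmablasts, none of the 51 genes was called higher and 1 was lower, where 8.90% and 5.39% of all genes were, and 12 had an unadjusted p under 0.05. The median difference was -0.31 against 0.22 over all genes, with 16 positive. The called gene was Derl3, at 4.24, 4.14 and 4.77 in plasma cells and 8.12, 8.71, 7.83 and 5.68 in plasmablasts. Every plasma cell array was below every plasmablast array, and it fell by 3.20 ± 0.50 (SE, adjusted p = 0.000117), a call kept in all alternative fits and with any array left out. Without plasmablast replicate 4 there were 4 calls, all lower: Derl3, Dnajb9 (-1.89), the ER-resident heat shock protein gene Hsp90b1 (-2.31), and the KDEL receptor Kdelr1 (-1.17). Without plasma cell replicate 3 the 3 calls were Derl3, Pdia4 (-2.34) and Sdf2l1 (-2.51), and without plasmablast replicate 2 there were 2, with Sel1l (1.57) higher. Leaving out the 3 arrays of narrow spread gave 17 calls, array weights 29, the groups alone 9 and renewed quantile normalization 7. Granulocyte (7 of 9), erythroid (5 of 6) and NK genes (3 of 7) were called lower in plasma cells than in plasmablasts, and their part was not tested. Fkbp11 differed by 1.65 ± 0.69 (SE, adjusted p = 0.127) and Lman1 by 1.41 ± 0.81 (SE, adjusted p = 0.305), neither of them called. Pdia4 differed by -1.72 (adjusted p = 0.1) and Hspa5 by 0.26 (adjusted p = 0.853). The comparisons of plasmablasts and of plasma cells with GC cells share the 5 GC arrays, so their values for a gene are not independent. Set side by side, Derl3 differed from GC cells by 1.76 in plasmablasts and -1.45 in plasma cells, Dnajb9 by -0.81 and -2.40, and Fkbp11 by 2.51 and 4.16.

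**Figure D3:**
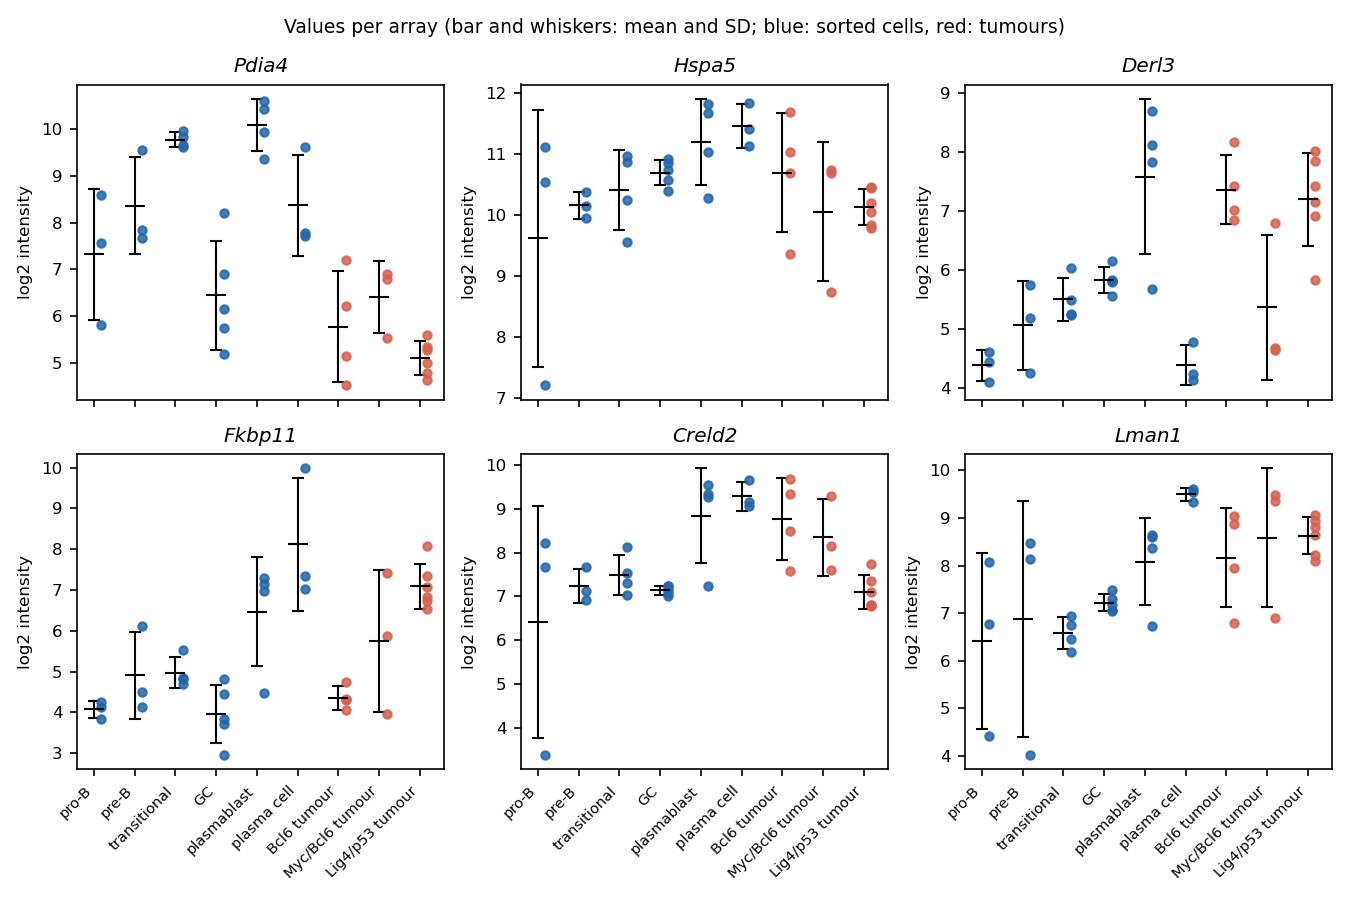
Log2 intensity of Pdia4, Hspa5, Derl3, Fkbp11, Creld2 and Lman1 in each array (points; blue sorted cells, red tumours) with the mean and SD of each group (bar and whiskers). Derl3 is at 7.83 to 8.71 in plasmablast replicates 1 to 3 and at 4.14 to 4.77 in plasma cells, Fkbp11 is highest in plasma cells, and plasmablast replicate 4 is the lowest plasmablast point in each panel.

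From pro-B to pre-B cells none of the 51 genes was called higher or lower, where 0.113% and 0.0484% of all genes were. At an unadjusted p under 0.05 there were 9, and the median difference was -0.41 against 0.11 over all genes. Without pro-B replicate 3 there was 1 call, Srprb, which was lower (-2.09, adjusted p = 0.0389). From pre-B to transitional cells 1 gene was higher and 1 lower, where 2.93% and 2.91% of all genes were. Dad1, a small subunit of oligosaccharyl transferase, was at 8.77, 6.60 and 8.01 in pre-B and 8.82, 9.52, 10.30 and 9.97 in transitional cells, apart from each other, and rose by 1.86 ± 0.43 (SE, adjusted p = 0.0114). The other probe set for Dad1 had means of 8.35 in pre-B and 8.94 in transitional cells. Sec63, which couples BiP to the translocon, was at 11.01, 10.32 and 10.82 against 8.91, 9.02, 8.52 and 7.84 and fell by 2.14 ± 0.37 (SE, adjusted p = 0.000847). The other probe sets for Sec63 showed no fall of that size, with means of 6.97, 6.74 and 5.41 in pre-B and 7.14, 6.03 and 5.32 in transitional cells. Without pre-B replicate 3 the count was 4, without the 3 arrays of narrow spread, of which 1 is a pre-B array, it was 7, and with renewed quantile normalization 2 were higher and 1 lower. Granulocyte genes (9 of 9) and erythroid genes (5 of 6) were called lower in transitional than in pre-B cells, and their part was not tested.

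GC cells differed from transitional cells in 4 of the 51 genes, 3 higher and 1 lower, where 5.29% and 8.21% of all genes were called. Pdia4 fell the most. It was at 9.83, 9.62, 9.97 and 9.66 in transitional cells, above every GC array (5.75, 6.16, 6.90, 5.20 and 8.21), and fell by 3.32 ± 0.59 (SE, adjusted p = 0.00118). Derl1, a derlin like Derl3, was at 8.94, 9.07, 9.06, 9.35 and 9.11 in GC cells and 4.99, 5.83, 7.55 and 7.41 in transitional cells. All GC arrays were higher, by 2.66 ± 0.81 (SE, adjusted p = 0.0334). Surf4 was at 8.45 to 8.57 in GC cells and 7.30, 6.99, 6.79 and 6.26 in transitional cells, and rose by 1.67 ± 0.28 (SE, adjusted p = 0.000624). Sec11c, the catalytic subunit of signal peptidase, was at 11.19, 11.02, 10.78, 10.51 and 10.64 against 9.38, 9.67, 9.41 and 9.78 and rose by 1.27 ± 0.38 (SE, adjusted p = 0.0315). The last was lost without transitional replicate 1, 2, 3 or 4 or GC replicate 1, 2 or 3 (adjusted p up to 0.0867), and Derl1 without transitional replicate 1 or 2 or GC replicate 1, 2, 3, 4 or 5 (adjusted p up to 0.128). The count was 2 without transitional replicate 1 or 2 or GC replicate 1, 2 or 3, but 9 without the 3 arrays of narrow spread, 13 with array weights and 15 with the groups fitted alone. Transitional cells were of strain 129 and GC cells of B6, and with strain in the fit, which only the pro-B samples separate from stage, none of the 4 was called. Renewed quantile normalization gave 1 higher and 1 lower, and it moved the median of all genes in this comparison from -0.27 to -0.05. It moved those of plasma cells minus GC from 0.28 to 0.06, of plasma cells minus plasmablasts from 0.22 to 0.06, of Bcl6 tumours minus GC from 0.21 to 0.04 and of Myc/Bcl6 tumours minus GC from 0.31 to 0.10. NK genes (7 of 7) and granulocyte genes (7 of 9) were higher in GC cells, and their part was not tested.

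The tumours were profiled to set malignant beside normal B cells, and GC cells are the reference for most of the comparisons here. In Bcl6 tumours 6 of the 51 genes were higher than in GC cells and 14 lower, where 13.0% and 13.9% of all genes were called. In Myc/Bcl6 tumours 7 were higher and 17 lower, against 27.2% and 20.9%. Both medians were negative (-0.41 and -0.57) while those of all genes were positive (0.21 and 0.31). In Lig4/p53 tumours 2 were higher and 3 lower, against 9.20% and 6.57%, with a median of -0.16 (0.12 over all genes). The comparisons share the GC arrays.

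The lectin chaperones Calr (calreticulin) and Canx (calnexin), which hold glycoproteins until they are folded, were called lower in both kinds of Bcl6 tumour. Canx was at 8.63, 6.25, 9.38 and 9.28 in Bcl6, 8.84, 9.55 and 7.66 in Myc/Bcl6 and 10.56, 10.45, 10.34, 10.09 and 10.13 in GC arrays. All tumour arrays were below all GC arrays, and it fell by 1.93 ± 0.47 (SE, adjusted p = 0.00249) and by 1.64 ± 0.51 (SE, adjusted p = 0.00994). In Lig4/p53 tumours it was at 10.09 to 10.83 (median 10.39), level with the GC arrays or above them, and higher than in Bcl6 tumours by 2.05 ± 0.45 (SE, adjusted p = 0.00102). Calr fell by 1.44 (adjusted p = 0.0296) in Bcl6 and by 2.59 (adjusted p = 0.000325) in Myc/Bcl6 tumours, and all 3 of its probe sets were called lower in both.

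Genes of protein entry were also among the decreases. Of the 12 translocon, translocon-associated and signal recognition genes, 6 were lower in Bcl6 and 7 in Myc/Bcl6 tumours, and Sec61a1 was the 1 called higher in each. Ssr2, a subunit of the translocon-associated complex, was at 6.03, 2.89, 5.06 and 5.25 in Bcl6 and 4.29, 2.91 and 3.32 in Myc/Bcl6 tumours against 7.93, 7.59, 7.68, 7.34 and 7.63 in GC cells. Every array of either tumour was below every GC array, and it fell by 2.83 ± 0.70 (SE, adjusted p = 0.00308) and by 4.13 ± 0.76 (SE, adjusted p = 9.09e-05). In Lig4/p53 tumours it was at 6.51 to 8.44 (median 7.76) and exceeded the Bcl6 tumours by 2.80 ± 0.68 (SE, adjusted p = 0.00248). Srp9, a subunit of the signal recognition particle, was lower in all tumour groups. Bcl6 arrays read 10.14, 8.67, 9.70 and 9.73, Myc/Bcl6 arrays 9.93, 9.39 and 9.14, Lig4/p53 arrays 9.16 to 9.68 (median 9.48) and GC arrays 11.54, 11.26, 10.72, 10.08 and 10.57. Only Bcl6 replicate 1 (10.14) reached above the lowest GC array (10.08). It fell by 1.28 (adjusted p = 0.00578) in Bcl6, by 1.35 (adjusted p = 0.00419) in Myc/Bcl6 and by 1.37 (adjusted p = 0.00165) in Lig4/p53 tumours. Tram1 (-1.68 and -2.84), Sec62 (-1.25 and -2.02), Ssr1 (-1.07 and -1.28) and Ssr3 (-1.82 and -2.32) were called lower in Bcl6 and Myc/Bcl6 tumours, and Ssr4 (-2.28) in the latter.

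Downstream of entry, Spcs1, a signal peptidase subunit, fell by 1.60 (adjusted p = 0.00363) in Bcl6 and by 1.90 (adjusted p = 0.000971) in Myc/Bcl6 tumours, and Spcs2 by 1.53 (adjusted p = 0.0219) in Myc/Bcl6 tumours. Ddost, an oligosaccharyl transferase subunit, was at 8.07, 3.39, 6.80 and 7.10 in Bcl6 and 7.80, 3.25 and 4.50 in Myc/Bcl6 tumours against 8.33, 8.36, 8.26, 7.64 and 8.70 in GC cells. Replicate 1 of each tumour lay within the GC range and the other tumour arrays below it, and it fell by 1.92 ± 0.69 (SE, adjusted p = 0.0377) and by 3.07 ± 0.75 (SE, adjusted p = 0.00157). Derl2 was at 7.67, 6.12, 8.73 and 9.004 in Bcl6 and 6.14, 8.40 and 4.41 in Myc/Bcl6 tumours against 10.23, 9.95, 9.98, 9.46 and 10.003 in GC cells. All tumour arrays were lower, and the differences were -2.04 ± 0.73 (SE, adjusted p = 0.0356) and -3.61 ± 0.79 (SE, adjusted p = 0.000564). Both of its probe sets were called lower in both tumours. Dnajb9 was at 9.89, 5.67, 7.66 and 7.82 in Bcl6 tumours, where replicate 1 exceeded all GC arrays, and its difference was -1.63 ± 0.61 (SE, adjusted p = 0.0436). Fkbp2, a prolyl isomerase of the lumen, was lower in both (-1.61, adjusted p = 0.0431 and -1.74 (adjusted p = 0.0279)). Kdelr1 was lower in Bcl6 tumours (-1.07, adjusted p = 0.0094). In Myc/Bcl6 tumours Pdia3 (-2.22, adjusted p = 0.00216), the isomerase that works with the lectins, Sdf2l1 (-2.001, adjusted p = 0.00859) and the co-chaperone Dnajb11 (-1.77, adjusted p = 0.0184) were also lower.

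Other members were called higher in these tumours. Derl3 was at 8.17, 6.85, 7.02 and 7.42 in Bcl6 tumours, above all GC arrays, and rose by 1.54 ± 0.48 (SE, adjusted p = 0.0177). Creld2 was at 9.67, 7.57, 8.49 and 9.34, also above all GC arrays, and rose by 1.62 ± 0.60 (SE, adjusted p = 0.0416). Sec61a1, the pore of the translocon, was at 11.77, 9.63, 10.54 and 10.81 in Bcl6 and 11.91, 10.77 and 10.59 in Myc/Bcl6 tumours against 8.80, 8.92, 9.19, 9.20 and 8.99 in GC cells. No tumour array overlapped the GC arrays, and the differences were 1.67 ± 0.51 (SE, adjusted p = 0.0158) and 2.07 ± 0.56 (SE, adjusted p = 0.00359). Rpn1, of oligosaccharyl transferase, was at 11.35, 9.40, 10.01 and 10.47 and 12.004, 10.26 and 10.46 against 9.66, 9.34, 8.74, 8.74 and 8.51. Bcl6 replicate 2 (9.40) lay below GC replicate 1 (9.66), and the differences were 1.31 ± 0.50 (SE, adjusted p = 0.0488) and 1.91 ± 0.54 (SE, adjusted p = 0.00524). Surf4 was at 9.98, 9.07, 9.34 and 9.56 and 10.39, 9.99 and 10.35, above every GC array (at most 8.57), by 0.98 ± 0.27 (SE, adjusted p = 0.0061) and 1.74 ± 0.29 (SE, adjusted p = 2.37e-05). Derl1 (2.18, adjusted p = 0.023), Hyou1, a large chaperone that exchanges nucleotide on BiP (2.01, adjusted p = 0.00294), and Fkbp11 (1.80, adjusted p = 0.0235) were higher in Myc/Bcl6 tumours.

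The largest difference of the list was that of Fkbp9, a prolyl isomerase. It was at 6.48, 6.53, 7.49 and 7.21 in Bcl6, 8.44, 8.57 and 8.49 in Myc/Bcl6 and 2.13, 2.25, 2.17, 2.20 and 2.06 in GC arrays. It lay between 2.16 and 4.85 in all other arrays of normal cells outside GC and between 2.27 and 2.97 in Lig4/p53 tumours. On this probe set both kinds of Bcl6 tumour were thus apart from every other group. The differences from GC cells were 4.77 ± 0.34 (SE, adjusted p = 8.11e-12) and 6.34 ± 0.37 (SE, adjusted p = 7.71e-14). The GC values lie at the low end of the arrays (0.7% of genes had a lower GC mean, and the lowest value of all was 1.71), so the size of these differences is uncertain. They come from a probe set whose suffix marks it as open to cross-hybridization. The other probe set for Fkbp9 had means of 2.54 in GC, 3.26 in Bcl6, 3.66 in Myc/Bcl6 and 2.43 in Lig4/p53 arrays, with differences of 0.72 (adjusted p = 0.0872) and 1.11 (adjusted p = 0.00921). On that probe set the tumours were not apart from the other groups. Its means were 3.29 in pro-B, 3.71 in pre-B, 3.29 in transitional, 3.00 in plasmablast and 2.90 in plasma cell arrays.

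These counts changed when 1 array was left out and when the 3′ over 5′ signal was fitted. For Bcl6 tumours the 20 calls became 13 without GC replicate 1, 3 or 5 or Bcl6 tumour replicate 1, and 11 without GC replicate 2 or Bcl6 tumour replicate 2. Each of the 9 Bcl6 tumour and GC arrays was left out in turn. Creld2 kept its call in 1 of these 9 fits, Derl2 in 3, Ddost in 4, and Dnajb9 and Rpn1 in 2 each (adjusted p up to 0.137, 0.198, 0.332, 0.306 and 0.188). Derl3 and Sec61a1 were lost without Bcl6 tumour replicate 1 (adjusted p = 0.0766 and 0.0816). Renewed quantile normalization gave 9 higher and 6 lower in Bcl6 tumours, 8 and 12 in Myc/Bcl6 tumours. With the excess of 3′ over 5′ signal of these control genes (Actb, Gapdh) as a covariate, 2 calls were left in Bcl6 and 12 in Myc/Bcl6 tumours. That difference was 3.23 to 4.70 in these tumours and 0.68 to 1.55 in GC cells. In Myc/Bcl6 tumours, Derl1, Pdia3 and Canx were lost without replicate 3 (adjusted p = 0.102, 0.0537 and 0.112), Rpn1 without replicate 1 (0.0655), and Fkbp11 without GC replicate 4 or Myc/Bcl6 tumour replicate 1 or 2 (up to 0.258). Macrophage genes (3 of 8) were called higher in Bcl6 tumours and hepatocyte genes (5 of 6) in Myc/Bcl6 tumours, the latter at a centred median of 7.38 in replicate 2 and 0.11 and 0.32 in the others. NK genes (7 of 7) were lower in all 3 tumour groups, and the part of these cells was not tested.

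In Lig4/p53 tumours, Fkbp11 was at 6.54 to 8.07 (median 6.95) against 4.83, 3.85, 3.71, 2.96 and 4.45 in GC cells, apart in every array, and rose by 3.14 ± 0.54 (SE, adjusted p = 6.61e-05). This call held in every alternative fit run and with any array left out. The suffix of its probe set marks it as open to cross-hybridization, and the other 2 probe sets for Fkbp11 differed by 0.38 and 0.33 and were not called. Derl3 was at 5.83 to 8.03 (median 7.29) and overlapped the GC arrays (5.56 to 6.16) in replicate 6 alone, with a difference of 1.37 ± 0.43 (SE, adjusted p = 0.0268). Dnajb9, at 7.05 to 8.22 (median 7.76), fell by 1.67 ± 0.55 (SE, adjusted p = 0.0328). Pdia3 was at 7.22 to 8.27 (median 7.73) against 9.59, 9.53, 9.27, 9.12 and 8.87 and fell by 1.52 ± 0.47 (SE, adjusted p = 0.0217), with Srp9 as the other decrease. All 6 tumour arrays were below all GC arrays for these genes. The count was 2 without GC replicate 1 or 2, and 3 without GC replicate 5 or Lig4/p53 tumour replicate 2 or 3. Derl3 was lost without GC replicate 1, 2, 4 or 5 or Lig4/p53 tumour replicate 1, 2 or 4 (adjusted p up to 0.0734), Dnajb9 without GC replicate 1, 2, 4 or 5 or Lig4/p53 tumour replicate 2, 3 or 6 (adjusted p up to 0.0789) and Pdia3 without GC replicate 1 or 2 or Lig4/p53 tumour replicate 3 or 5 (adjusted p up to 0.0544). Renewed quantile normalization and equal medians each gave 2 higher and 5 lower, and the 3′ minus 5′ covariate left 2 calls. Fitting the groups alone gave 28, array weights 27 and leaving out the 3 arrays of narrow spread 16. T-cell (7 of 7), NK (7 of 7), granulocyte (4 of 9) and erythroid genes (3 of 6) were called lower in these tumours, and their part was not tested. Pdia4 was at 4.64 to 5.60 (median 5.14), and its difference of -1.34 (adjusted p = 0.0743) was not called.

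Against pro-B cells, 6 of the 51 genes were higher in Lig4/p53 tumours and 5 lower, where 13.2% and 7.91% of all genes were. Derl3 rose by 2.82 ± 0.51 (SE, adjusted p = 0.000185) from the 4.45, 4.62 and 4.09 of the pro-B arrays, and Fkbp11 by 3.03 ± 0.63 (SE, adjusted p = 0.000768) from 4.25, 4.12 and 3.84. For both genes every tumour array was above every pro-B array. Derl1 (2.80, adjusted p = 0.00815), Lman1 (2.20, adjusted p = 0.025), Sec11c (1.17, adjusted p = 0.0258) and Surf4 (1.04, adjusted p = 0.00792) were the other increases, of which Derl1, Lman1 and Sec11c were lost without pro-B replicate 1 (adjusted p = 0.164, 0.377 and 0.121). Pdia4 fell by 2.22 ± 0.60 (SE, adjusted p = 0.00761) from 5.82, 8.58 and 7.56. All tumour arrays were below all pro-B arrays, and without pro-B replicate 2 the call was lost (adjusted p = 0.0745). Dnajc3, a BiP co-chaperone that also inhibits the kinase Eif2ak3 (-2.29, adjusted p = 0.00504), Fkbp2 (-2.25, adjusted p = 0.00992), Srprb (-1.23, adjusted p = 0.0382) and Kdelr1 (-1.19, adjusted p = 0.00796) were also lower. Averaged over its probe sets, Fkbp11 differed by 0.77 (adjusted p = 0.157), Derl1 by 1.36 and Surf4 by -0.03, none of them called. Renewed quantile normalization gave 4 higher and 11 lower, and array weights 23 calls. NK (7 of 7), granulocyte (8 of 9) and T-cell genes (4 of 7) were called lower in the tumours, and their part was not tested.

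Set against each other, Lig4/p53 tumours had 6 genes higher and 7 lower than Bcl6 tumours, where 15.5% and 10.9% of all genes were. The increases were Ssr2 and Canx, given above, Fkbp11 at 2.75 ± 0.57 (SE, adjusted p = 0.000603), Spcs1 (1.24, adjusted p = 0.0186), Kdelr1 (1.12, adjusted p = 0.00517) and Ssr1 (0.95, adjusted p = 0.0484). Bcl6 tumour arrays read 4.30, 4.33, 4.05 and 4.74 for Fkbp11, all below every Lig4/p53 array. The decreases were Fkbp9 at -4.50 ± 0.32 (SE, adjusted p = 6.7e-12), Edem1, a lectin that directs misfolded glycoproteins to degradation (-1.98, adjusted p = 0.0268), Derl1 (-1.96, adjusted p = 0.0347), Creld2 (-1.67, adjusted p = 0.0299), Dnajc3 (-1.65, adjusted p = 0.0213), the vesicle coat subunit Sec24d (-1.61, adjusted p = 0.0242) and Surf4 (-0.70, adjusted p = 0.0412). Ssr1, Edem1, Creld2, Dnajc3, Sec24d and Surf4 overlapped between the groups. There were 8 calls without Bcl6 tumour replicate 1 or 4, renewed quantile normalization gave 3 higher and 8 lower, the 3′ minus 5′ covariate left 7, array weights gave 21 and leaving out the 3 arrays of narrow spread 20. Averaged over probe sets, Fkbp11 (0.46, adjusted p = 0.334), Derl1 (-0.03, adjusted p = 0.966) and Surf4 (-0.11, adjusted p = 0.835) were not called. T-cell (7 of 7) and macrophage genes (3 of 8) were called lower in Lig4/p53 tumours, and their part was not tested.

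Bcl6 tumours had 4 genes higher and 6 lower than plasma cells, where 6.64% and 12.1% of all genes were. The increases were Fkbp9 (4.18, adjusted p = 1.47e-09), Derl3 (2.98, adjusted p = 0.000208), Derl1 (2.93, adjusted p = 0.0111) and Surf4 (2.16, adjusted p = 4.33e-06). The decreases were Fkbp11 (-3.77, adjusted p = 0.000162), Ssr2 (-2.71, adjusted p = 0.0156), Pdia4 (-2.60, adjusted p = 0.00434), Ddost (-2.18, adjusted p = 0.049), Spcs1 (-1.61, adjusted p = 0.0131) and the translocon subunit Sec61b (-1.49, adjusted p = 0.0222). For Pdia4, Bcl6 arrays read 7.21, 5.15, 4.52 and 6.23 against the 7.78, 7.72 and 9.62 of plasma cells, without overlap. The count was 5 without plasma cell replicate 3, where Pdia4 (adjusted p = 0.0596), Derl1 (0.171) and Ssr2 (0.221) were among those lost, and 6 without Bcl6 tumour replicate 2. Renewed quantile normalization gave 6 higher and 5 lower. Averaged over probe sets, Derl1 and Surf4 turned to -0.33 each (adjusted p = 0.763 and 0.658) and Fkbp11 was at -0.85 (adjusted p = 0.161), none of them called. T-cell (5 of 7) and macrophage genes (3 of 8) were called higher in the tumours, and their part was not tested.

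**Figure D4:**
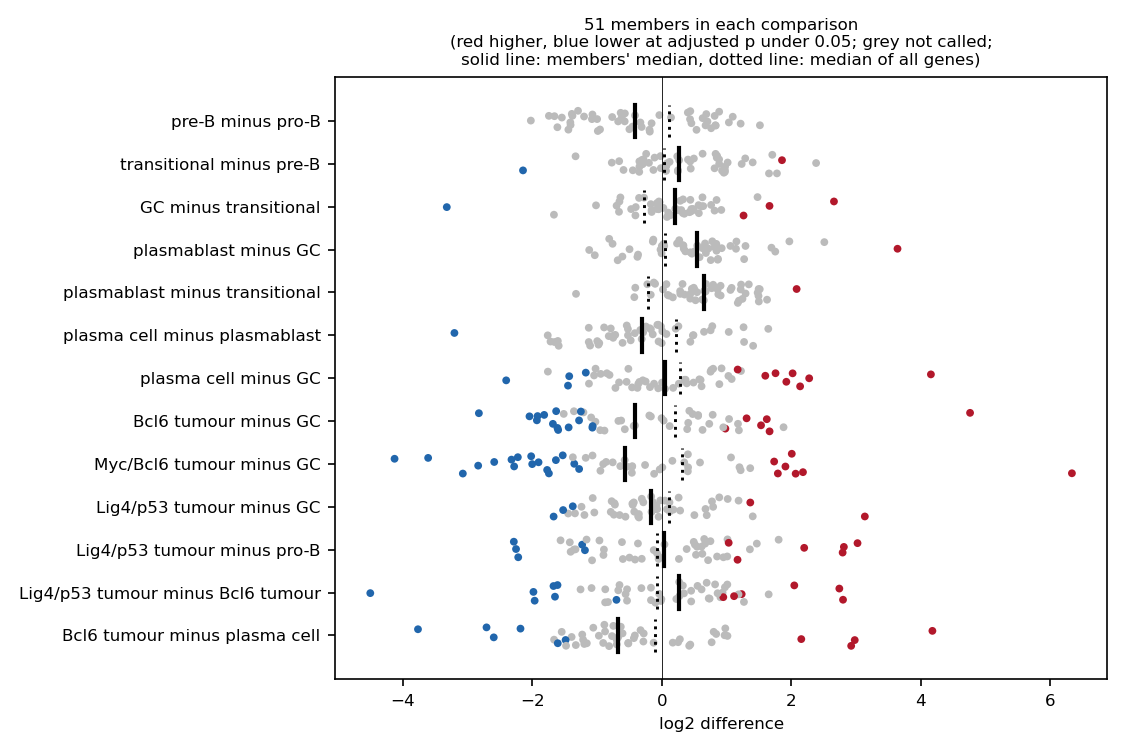
Fitted log2 difference of each of the 51 genes (points) in the 13 comparisons; red and blue points were called higher and lower at an adjusted p under 0.05, the solid line is their median and the dotted line the median of all 12393 genes. The list's median exceeds that of all genes most in the plasmablast comparisons (0.55 against 0.05, and 0.66 against -0.21), and Fkbp9 is the point at 6.34 in Myc/Bcl6 tumours.

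Probe sets of 1 gene did not always move together. Of the 51 genes 32 had more than 1 probe set. In Bcl6 tumours against GC cells, Dnajc3, Derl1 and Surf4 each had probe sets called in opposite directions, as had 2.5% of the 4956 genes with more than 1 probe set. In Myc/Bcl6 tumours these were Dnajc3, Derl1, Surf4 and Sec61a1, with 7.08% of those genes. Between Bcl6 tumours and plasma cells Derl1 was called both ways, with 0.928% of those genes. Derl1 ranged from 2.18 to -2.52 among its 4 probe sets in Myc/Bcl6 tumours, and Surf4 from 1.74 to -2.87 among 5. For Sec61a1, 2 probe sets were called higher (2.07 and 1.29) and 1 lower (-1.06), and for Rpn1, 3 probe sets were called higher (1.91, 1.995 and 1.87) while 2 were at -1.10 and -1.20 and not called. Stt3a had means of 11.95 in Myc/Bcl6 tumours and 10.88 in GC cells on the probe set read, but 6.65 and 9.21 on a second. In the comparisons of normal cells no gene of the list was called both ways. Between GC and transitional cells, Derl1 and Surf4 were not called when their probe sets were averaged. Averaged over its probe sets, Derl1 in Myc/Bcl6 tumours was at -0.58 and Sec61a1 at -0.001 relative to GC cells, so that the direction of these genes in the tumours depends on the probe set read.

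**Figure D5:**
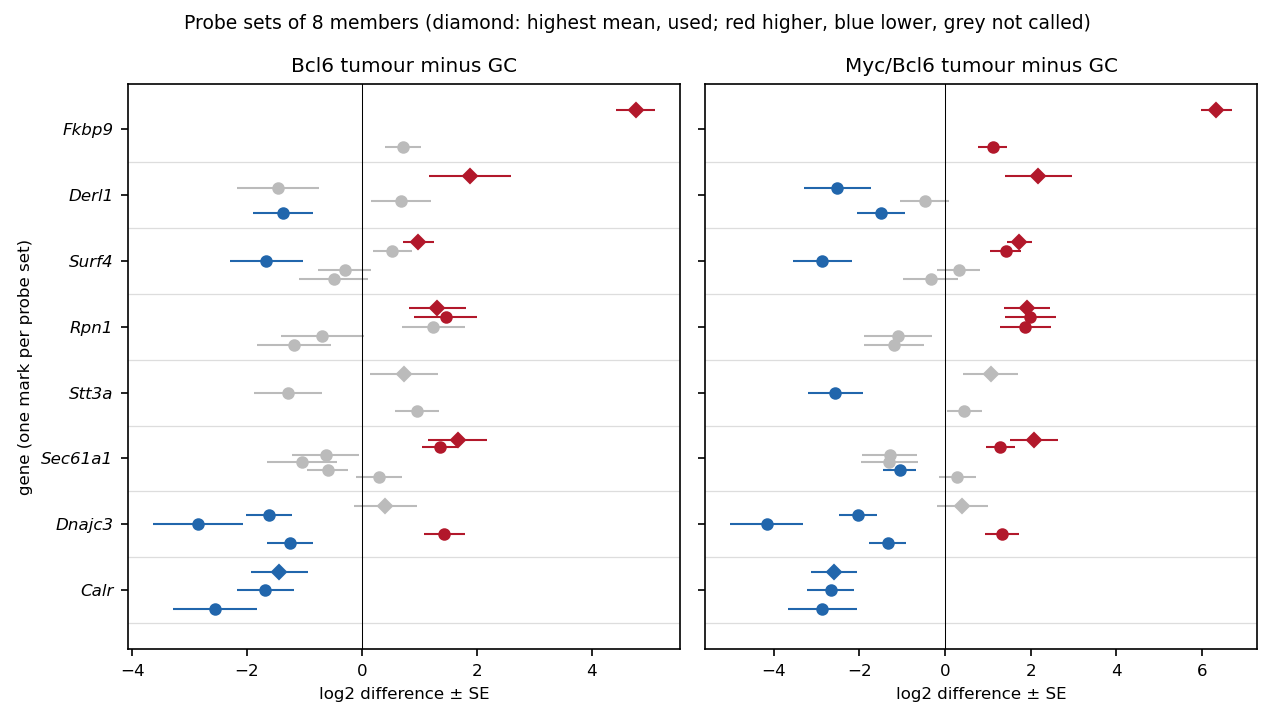
Log2 difference ± SE from GC cells for each probe set of 8 genes, in Bcl6 tumours (left) and Myc/Bcl6 tumours (right); diamonds are the probe sets with the highest mean, and red, blue and grey mean called higher, called lower and not called over all probe sets. The probe sets of Calr lie on the same side, while those of Derl1, Surf4, Sec61a1, Dnajc3, Rpn1 and Stt3a lie on both sides of 0.

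Other genes of the pathway were counted from lists of 18 regulators of the unfolded protein response and 52 further secretory genes. Neither list had a call between plasmablasts and GC cells or plasmablasts and transitional cells. Between plasma cells and GC cells 7 regulators were higher and 3 lower (38.9% and 16.7%), and 9 secretory genes higher and 1 lower (17.3% and 1.9%), beside 11.9% and 7.63% of all genes. Eif2ak3, the kinase that slows translation under ER stress, fell by 2.20 ± 0.62 (SE, adjusted p = 0.0147), and Sil1, a nucleotide exchange factor of BiP, rose by 2.85 ± 0.40 (SE, adjusted p = 2.82e-05). Xbp1 was at 7.95, 9.10, 7.84 and 6.79 in plasmablasts, 8.44, 8.11 and 6.43 in plasma cells and 6.53 to 7.41 in GC cells, which overlap, and was called in neither. In Bcl6 tumours 4 regulators were higher and 4 lower than in GC cells (22.2% each), and 7 secretory genes each way (13.5%, near the 13.0% and 13.9% of all genes). In Myc/Bcl6 tumours the counts were 8 and 5 for regulators (44.4% and 27.8%) and 8 and 15 for secretory genes (15.4% and 28.8%), beside 27.2% and 20.9%. There Xbp1 rose by 2.31 (adjusted p = 0.00593) and its activating enzyme Ern1 by 1.11 (adjusted p = 0.0330), while Atf6 fell by 1.75 (adjusted p = 0.00282), Atf4 by 2.38 (adjusted p = 2.07e-06) and Eif2ak3 by 3.80 (adjusted p = 3.22e-05). In Lig4/p53 tumours Xbp1 was at 4.43 to 6.72 and fell by 1.72 (adjusted p = 0.0291) from GC cells. Regulators counted 2 higher and 2 lower there (11.1% each), and secretory genes 5 and 2 (9.6% and 3.8%), beside 9.20% and 6.57%.

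Of the 51 genes, 42 (82.4%) were called in at least 1 of the 13 comparisons, as were 77.9% of all genes, most often Derl3 and Surf4 (7 comparisons each), Fkbp11 (6), and Pdia4 and Derl1 (5 each). The 9 called in none were Hspa5, Hsp90b1, Manf, Herpud1, Spcs3, Stt3a, Sec23b, Kdelr2 and Ddit3. Hspa5 had group means between 9.62 ± 2.11 (SD) in pro-B and 11.46 ± 0.36 in plasma cells. Hsp90b1 was at 10.98, 11.32, 10.90 and 8.46 in plasmablasts and 9.26, 9.18, 8.94, 9.03 and 9.19 in GC cells, with replicate 4 below and the other 3 above the GC arrays, and differed by 1.30 (adjusted p = 0.514). Manf, a secreted ER stress protein, was at 10.03, 9.98, 9.80 and 8.05 in plasmablasts against 7.66 to 8.47 in GC cells, with replicate 4 inside that range. Herpud1, which organizes the degradation complex, had the smallest range of the list on the probe set read (group means 8.11 to 9.14). Its other probe set ranged from 6.90 in Myc/Bcl6 tumours to 9.26 in plasma cells. Sec23b and the signal peptidase subunit Spcs3 spanned 7.24 to 8.56 and 6.02 to 8.93, and the KDEL receptor Kdelr2 7.92 to 10.10. Stt3a, the catalytic subunit of oligosaccharyl transferase, was highest in Myc/Bcl6 tumours (11.95) and lowest in pro-B cells (9.50) on the probe set read. A second probe set was highest in pro-B cells (9.50) and lowest in Myc/Bcl6 tumours (6.65). Ddit3, which encodes the stress factor CHOP, was highest in transitional cells (7.21, 8.22, 9.21 and 9.28) and lowest in Myc/Bcl6 tumours (5.28, 5.63 and 6.01).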

How the data were processed

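RNA was extracted with Tripure and amplified with the NuGen Ovation V2 kit, per the labels' protocols, and hybridised to Affymetrix Mouse 430A2 arrays. The authors deposited 1 log2 intensity per probe set and array, made by RMA, per the submitters' processing notes. Whether all arrays were normalized together is not given in the sources used here. The values were used as deposited (1.71 to 14.29). Of 22690 probe sets, 64 were controls, 691 named more than 1 gene and 1555 named no gene, and these were not used. The remaining 20380 gave 12393 genes, each read from its probe set with the highest mean over the 35 arrays. Trp53 and Lig4 were not analysed here. Array data carry no read depth, and the number of arrays limits the precision.

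Differences are contrasts fitted to all genes with limma 3.58.1 in R 4.3.3 (lmFit and eBayes). Normal groups were compared in a fit of the 22 normal arrays and tumours in a fit of all 35. p-values are two-sided, were adjusted by Benjamini-Hochberg over 12393 genes, and called at 0.05. The fits were tested on simulated data. Values centred on the mean of the group means serve only for display and list medians. The members and lists, the alternatives and the markers of other cells were chosen with earlier results of these data known. Any member could be named. Values per array were given for Pdia4, Hspa5 and Derl3, for the largest called differences (up to 6 higher and 4 lower) in 6 of the comparisons, and for a few others chosen after their values were seen. The alternatives were other normalizations, filters, priors, weights, covariates, probe-set rules, groups fitted alone, the replicate block and left-out arrays; 1 of them, testing each probe set, was added after seeing the data. Replicate numbers are shared between groups but did not pair the arrays: in no comparison were all correlations of same-numbered arrays above 0.1 (they ranged from -0.49 to 0.39).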

Additional observations from a re-analysis of the deposited data

Results flagged for a closer look

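In 8 of the 115 sets of 4 to 10 arrays of a group looked at, 1 array lay far from all others of its group, where chance alone gives about 5 in 100. Plasmablast replicate 4 was that array for 5 genes, each time as the lowest. It was at 4.47 for Fkbp11 (the other plasmablast arrays at 6.97 to 7.29), at 6.72 for Lman1 (8.37 to 8.64), at 7.23 for Creld2 (9.26 to 9.53), at 8.16 for Rpn1 (9.89 to 10.18) and at 7.47 for Ssr2 (8.73 to 8.89). GC replicate 3 was lowest for Dnajb9 at 8.44, with the other GC arrays at 9.45 to 9.82. Bcl6 tumour replicate 2 was lowest for Pdia3 at 6.10, with the others at 8.60 to 8.93. Lig4/p53 tumour replicate 3 was highest for Fkbp9 at 2.97, with the others at 2.27 to 2.36.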

How the results depend on the processing

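The number of the 51 genes called depends on the processing. With 1 array left out it was 0 to 1 for pre-B against pro-B (main value 0), 2 to 4 for transitional against pre-B (2), 2 to 3 for GC against transitional (4), 1 to 3 for plasmablast against GC (1), 0 to 1 for plasmablast against transitional (1), 1 to 4 for plasma cell against plasmablast (1) and 5 to 10 for plasma cell against GC (12). For the tumours it was 11 to 17 for Bcl6 against GC (20), 17 to 24 for Myc/Bcl6 against GC (24), 2 to 6 for Lig4/p53 against GC (5), 10 to 14 for Lig4/p53 against pro-B (11), 8 to 13 for Lig4/p53 against Bcl6 (13) and 5 to 11 for Bcl6 against plasma cells (10). The counts that moved by over 1.5 times under another setting follow. Renewed quantile normalization gave 1 for pre-B against pro-B, 2 for GC against transitional, 0 for plasmablast against transitional and 7 for plasma cell against plasmablast. Equal medians gave 3 for plasmablast against GC, 0 for plasmablast against transitional and 2 for plasma cell against plasmablast. Leaving out the dimmest 25% of genes gave 2, 0 and 2 for these comparisons, and a trended, robust prior gave 2 for plasmablast against GC. Array weights gave 13 for GC against transitional, 34 and 27 for plasmablast against GC and transitional, 29 and 32 for plasma cell against plasmablast and GC, 31 for Bcl6 against GC, and 27, 23 and 21 for Lig4/p53 against GC, pro-B and Bcl6. Fitting the compared groups alone gave 1 for transitional against pre-B, 15 for GC against transitional, 10 and 8 for plasmablast against GC and transitional, 9 and 24 for plasma cell against plasmablast and GC and 28 for Lig4/p53 against GC. Without the 3 arrays of narrow spread these counts were 7, 9, 9, 14, 17, 24 and 16, with 1 for pre-B against pro-B and 20 for Lig4/p53 against Bcl6. The 3′ minus 5′ covariate gave 2 for plasmablast against GC, 4 for plasma cell against plasmablast, 2, 12 and 2 for Bcl6, Myc/Bcl6 and Lig4/p53 against GC and 7 for Lig4/p53 against Bcl6. The strain covariate gave 1 for pre-B against pro-B and 0 for GC and plasmablast against transitional. Without plasma cell replicates 1 and 2 there were 2 calls against plasmablasts and 5 against GC. Testing each probe set, an alternative chosen after seeing the data, gave 7 for GC against transitional, 2 and 0 for plasmablast against GC and transitional, 7 for plasma cell against plasmablast and 9 for Lig4/p53 against GC. The mean of all probe sets of a gene gave 1 for transitional against pre-B, 2 for GC against transitional, 2 for plasma cell against plasmablast and 7 for Lig4/p53 against pro-B, and it reversed 7 called differences: Surf4 for plasma cell against GC (0.14), Bcl6 against GC (-0.19), Lig4/p53 against pro-B (-0.031) and Bcl6 against plasma cell (-0.33), Derl1 for Myc/Bcl6 against GC (-0.58) and Bcl6 against plasma cell (-0.33), and Sec61a1 for Myc/Bcl6 against GC (-0.001). The share of all genes called under each setting is not set beside these counts, so they do not describe the list alone. Why these values moved was not tested.

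The replicate number as a block gave 0 calls for plasmablast against transitional, 2 and 6 for plasma cell against plasmablast and GC, 13 for Bcl6 against GC and 7 for Lig4/p53 against Bcl6. The numbers did not pair the arrays.

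In all settings tried for single genes and with any single array left out, the calls kept were Pdia4 for plasmablast against GC, Fkbp11 for plasma cell and for Lig4/p53 tumours against GC, Dnajb9 for plasma cell against GC, Derl3 for plasma cell against plasmablast, Lig4/p53 against pro-B and Bcl6 against plasma cell, Srp9 for Lig4/p53 against GC, Canx for Lig4/p53 against Bcl6, and Fkbp9 wherever it was called in a comparison with Bcl6 tumours or of Myc/Bcl6 tumours with GC. Fkbp9 was among the genes dropped when the dimmest 25% were left out, so that setting gave no value for it. Testing each probe set was not among these settings for single genes. On its other probe set, Fkbp9 was not called for Bcl6 tumours against GC.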
